A study of Mus musculus with 4 samples.

Results

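Wnt proteins are secreted lipid-bearing ligands, and Frizzleds are the membrane receptors that bind them. Lrp5 and Lrp6 join a Frizzled in the canonical branch, which stabilises beta-catenin, whereas Ryk, Ror1 and Ror2 carry Wnt signals that need not pass through beta-catenin. In embryonic skin, Wnt signalling in dermis and epidermis precedes the hair placode and the dermal condensate beneath it. The set described here comprised the 19 Wnt ligands, 10 Frizzleds and 5 co-receptors of the mouse, 34 of the 18193 genes named by the array. Its members were defined by gene family. For each gene the brightest probe set, by the mean over the arrays, was taken. In all, 69 of 45037 probe sets name a member and no other gene.

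Dermal RNA was measured in E15.5 embryos (embryonic day) on 4 Affymetrix arrays. The mutant group comprised 2 KRT14-Cre Ctnnb1(Ex3)fl/+ embryos and the control group 2 littermates whose genotype is not stated further. The keratin 14 promoter drives Cre in surface epithelium, where loss of the floxed exon leaves a beta-catenin that escapes degradation, so the dermis assayed here lies under the altered tissue and is not itself the target of Cre. Dorsal skin was split with dispase before RNA was taken from the dermis, and the labels present each array as a separate embryo sample.

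Signals are scaled intensities without a unit, with the same trimmed mean on every array. Because probe sets differ in binding, the signal of a member is compared here between arrays and never with that of another member. Ctnnb1, the altered gene, gave 4838 and 4397 on the mutant arrays and 5335 and 4721 on the control arrays. Each of 10 dermal mesenchyme markers was above array background on all 4 arrays, with 5641 and 4453 for the collagen gene Col1a1 on the mutant arrays and 4101 and 5169 on the control arrays. In the instrument records, however, mouse epidermis is entered as the sample type of all 4 arrays. All 15 epidermal keratinocyte markers were above background on at least 2 arrays. So were all 10 skeletal muscle, all 8 endothelial and all 6 Schwann cell and nerve markers, and 6 of 8 cartilage markers. The background level, defined below, lay under the median signal of each array, so most probe sets exceeded it.

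The labels and the deposited results did not agree on which arrays belong together. Of the 153 probe sets in the authors' deposited table of mutant over control folds, 0 had both mutant arrays on one side of both control arrays, and for 152 the arrays mutant 2 and control 1 lay together on the side that the listed fold gives to mutant. The columns per embryo of the authors' deposited table do not settle that direction. Their mutant over control ratio and the fold fell on the same side of 1 in 96 of the 153 entries and on opposite sides in 57, and the ratio came within 10% of the fold in 2. Read by those columns in place of the fold, mutant 2 and control 1 lay together on the mutant side for 95 probe sets and on the control side for 57. The members are therefore given by label and also by the 2 array pairs, mutant 2 with control 1 and mutant 1 with control 2. The pairs were recognised from these data, they are not groups of the study, and no test was run between them. They also match the order of processing on the instrument. Mutant 2 and control 1 were washed in fluidics modules 4 and 3 and scanned last, and mutant 1 and control 2 in modules 2 and 1, so pair and instrument order cannot be told apart.

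Expression in the dermis was judged against 31 genes of other organs, such as the albumin gene Alb, whose 90th percentile of signal was 15.8 on mutant 1, 17.2 on mutant 2, 16.96 on control 1 and 20.1 on control 2. That list is not free of signal, since its pancreatic enzyme gene Cela1 reached 104.5 and 98.1 on the mutant arrays and 129.6 and 88.0 on the control arrays. A member was called above background when it exceeded that level on at least 2 arrays. By that rule 25 of the 34 members were above background, made up of 10 of 19 ligands, all 10 Frizzleds and all 5 co-receptors. That level is low for the array, whose median signal was 28.7 on mutant 1, 32.4 on mutant 2 and 29.8 on each control array. On each array most probe sets therefore exceeded it, and each member stood by its brightest probe set. The share of all probe sets that met the rule was not counted. All receptors met the rule, whereas 9 ligands did not.

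Among the ligands, Wnt5a, a ligand of Ror2 that acts largely outside the beta-catenin branch, gave 529 and 571 on the mutant arrays and 512 and 539.5 on the control arrays. These 4 values span a narrow range and the groups overlap. Wnt11, known for guiding cell movements in the early embryo, gave 244 and 176 on the mutant arrays and 233 and 159 on the control arrays, so the array numbered 1 was the higher in each group.

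Wnt2, a canonical ligand known from lung mesenchyme, gave 243 and 344.5 on the mutant arrays and 446 and 62.9 on the control arrays. The array control 2 lay apart from the other 3, and the highest signal was 7.10 times the lowest. Wnt4, a ligand needed for kidney tubule formation, gave 184 and 91.0 on the mutant arrays and 86.7 and 198 on the control arrays, with 1 high and 1 low array in each group.

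Wnt6 gave 71.9 and 84.0 on the mutant arrays and 115 and 81.6 on the control arrays, with control 1 highest. Wnt9a, a ligand of developing joints, gave 66.7 and 56.9 on the mutant arrays and 44.1 and 55.7 on the control arrays, and the groups did not overlap. Wnt7b, a canonical ligand of epithelia, gave 71.3 and 32.6 on the mutant arrays and 46.0 and 48.4 on the control arrays, with both controls between the mutants.

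Wnt10a, mutated in human disorders of teeth and hair, gave 32.6 and 39.2 on the mutant arrays and 46.9 and 21.9 on the control arrays. Wnt5b, the closest relative of Wnt5a, gave 15.1 and 34.3 on the mutant arrays and 29.0 and 17.6 on the control arrays, and it exceeded background on 2 arrays. Wnt7a, which patterns the dorsal limb, gave 11.3 and 34.4 on the mutant arrays and 25.8 and 31.1 on the control arrays, and mutant 1 alone was under background. That holds for its brightest probe set only. The others were under background on every array, with a highest signal of 11.28 on mutant 2. The dimmer probe sets of Wnt9a, Fzd5 and Fzd10 were under background on every array as well. Wnt1, Wnt2b, Wnt3, Wnt3a, Wnt8a, Wnt8b, Wnt9b, Wnt10b and Wnt16 did not meet the background rule. Their signals ran from 0.364, for Wnt3 on mutant 1, to 18.9, for Wnt2b on mutant 2, and that Wnt2b signal alone among these 9 genes exceeded the background level of its array. The probe sets of Wnt3 and Wnt5b are of a type that can bind other transcripts, so the identity of their signal is less certain.

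The Frizzleds Fzd1, Fzd2 and Fzd7 form the subfamily whose members most resemble each other, and all were well above background. Fzd1 gave 589 and 701 on the mutant arrays and 823 and 654 on the control arrays. Fzd2 gave 860 and 811 on the mutant arrays and 810.5 and 849 on the control arrays, with nearly equal values in both groups. Fzd7 gave 256 and 285 on the mutant arrays and 310.4 and 289.5 on the control arrays, both mutant values being lower by a small margin. Fzd3 and Fzd6 are the Frizzleds of planar cell polarity, and Fzd6 is known for orienting hair follicles in mouse skin. Fzd3 gave 171 and 188 on the mutant arrays and 147 and 222 on the control arrays, and Fzd6 gave 182.5 and 195 on the mutant arrays and 178 and 179 on the control arrays.

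Fzd4, which also binds the non-Wnt ligand norrin in blood vessels of the retina, gave 196 and 383 on the mutant arrays and 395 and 202 on the control arrays. Each label had 1 high and 1 low array, with mutant 2 close to control 1 and mutant 1 close to control 2. Fzd10 gave 53.7 and 83.0 on the mutant arrays and 104 and 31.9 on the control arrays, with the controls at both ends. Fzd9, a relative of Fzd10, gave 39.1 and 44.9 on the mutant arrays and 14.4 and 32.2 on the control arrays, and control 1 was under background. Fzd5 and Fzd8 form another subfamily. Fzd5 gave 30.7 and 39.9 on the mutant arrays and 33.95 and 28.9 on the control arrays, whereas Fzd8 gave 62.9 and 111 on the mutant arrays and 56.5 and 43.5 on the control arrays, mutant 2 being the highest.

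Of the co-receptors, Lrp6 gave 334 and 532.5 on the mutant arrays and 482 and 426 on the control arrays. Its relative Lrp5 was near background, with 19.9 and 16.9 on the mutant arrays and 20.6 and 27.8 on the control arrays. Ryk, an atypical receptor kinase, gave 609.5 and 398 on the mutant arrays and 442 and 532 on the control arrays. The receptor tyrosine kinase Ror1 gave 233 and 284 on the mutant arrays and 271 and 274 on the control arrays. Ror2, the Wnt5a receptor, gave 228 and 147.5 on the mutant arrays and 170 and 324 on the control arrays, so its groups overlapped.

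**Figure D1:**
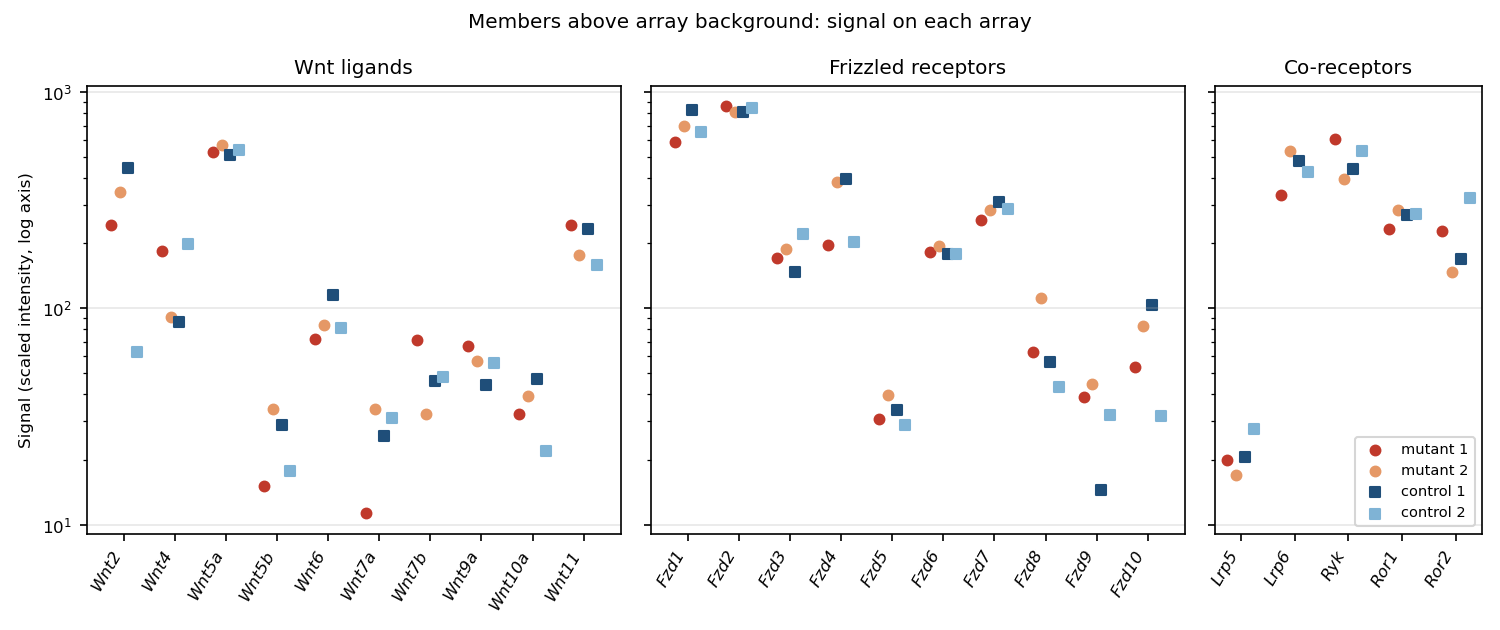
Signal on each array (vertical log axis, scaled intensity) of the 25 members above array background, in 3 panels for ligands, Frizzleds and co-receptors. Circles are mutant arrays and squares control arrays, 1 point per array. Wnt5a and Fzd2 lie close together on all 4 arrays, whereas Wnt2, Wnt4, Fzd4 and Fzd10 have 1 high and 1 low array under at least 1 label.

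By label, the question was whether any Wnt ligand or receptor differed in dermis under the altered epithelium. With the arrays labelled as deposited, no member passed the adjusted threshold. Whether labels were exchanged between arrays was not tested, and if they were, the differences by label would not be differences between genotypes. Of the 34 members, 22 were bright enough for the test across the array, namely 8 ligands, all 10 Frizzleds and 4 co-receptors, and 0 of the 22 passed in limma (adjusted p = 0.9999 for each). Over all 22519 tested probe sets, 0 passed (0%), and 208 had an unadjusted p under 0.05 (0.924%), of which 0 were members. With 2 arrays per group, this does not show that the members were alike in both groups.

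The differences by label, in log2(signal + 16), ran from -0.33 for Ror2 to 0.68 for Wnt2 and had a median of 0.033 over the 22 members. Over all tested probe sets the median was -0.010. The median size without regard to sign was 0.098 for the members and 0.095 over all tested probe sets. Both mutant arrays lay above both control arrays for 4 of the 22 members, Wnt9a, Fzd6, Fzd8 and Fzd9, against 8.69% of all tested probe sets. Both lay below for 1, Fzd7, against 11.8% of all tested probe sets.

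Fzd8 and Fzd9 had the largest differences of those whose labelled groups did not overlap, at 0.61 ± 0.29 and 0.60 ± 0.29 (limma SE, n = 2 per group). Without 1 array, Fzd8 ran from 0.26 when mutant 2 was left out to 0.96 when mutant 1 was. Fzd9 ran from 0.26 without control 1 to 0.93 without control 2. A further probe set of Fzd8 gave 16.4 and 40.5 on the mutant arrays and 14.8 and 11.3 on the control arrays, so both probe sets were highest on mutant 2. The array mutant 2 also held nearly all the cartilage signal. The summed signal of 8 cartilage markers was 269 on mutant 1 and 10130 on mutant 2, against 239 on control 1 and 303 on control 2, and the part of these markers in the Fzd8 and Fzd9 values was not tested.

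Wnt9a differed by 0.24 ± 0.20, Fzd6 by 0.073 ± 0.14 and Fzd7 by -0.14 ± 0.14 (limma SE, n = 2 per group). Wnt2 had the largest value of all, 0.68 ± 0.84, but its error exceeded it, and without control 2 the value turned to -0.60. Wnt4 differed by -0.02 ± 0.47 and Fzd4 by -0.04 ± 0.43 (limma SE, n = 2 per group), and the arrays of each label lay far apart for both genes. For Fzd6, the mean over its probe sets had the opposite sign to its brightest probe set.

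**Figure D2:**
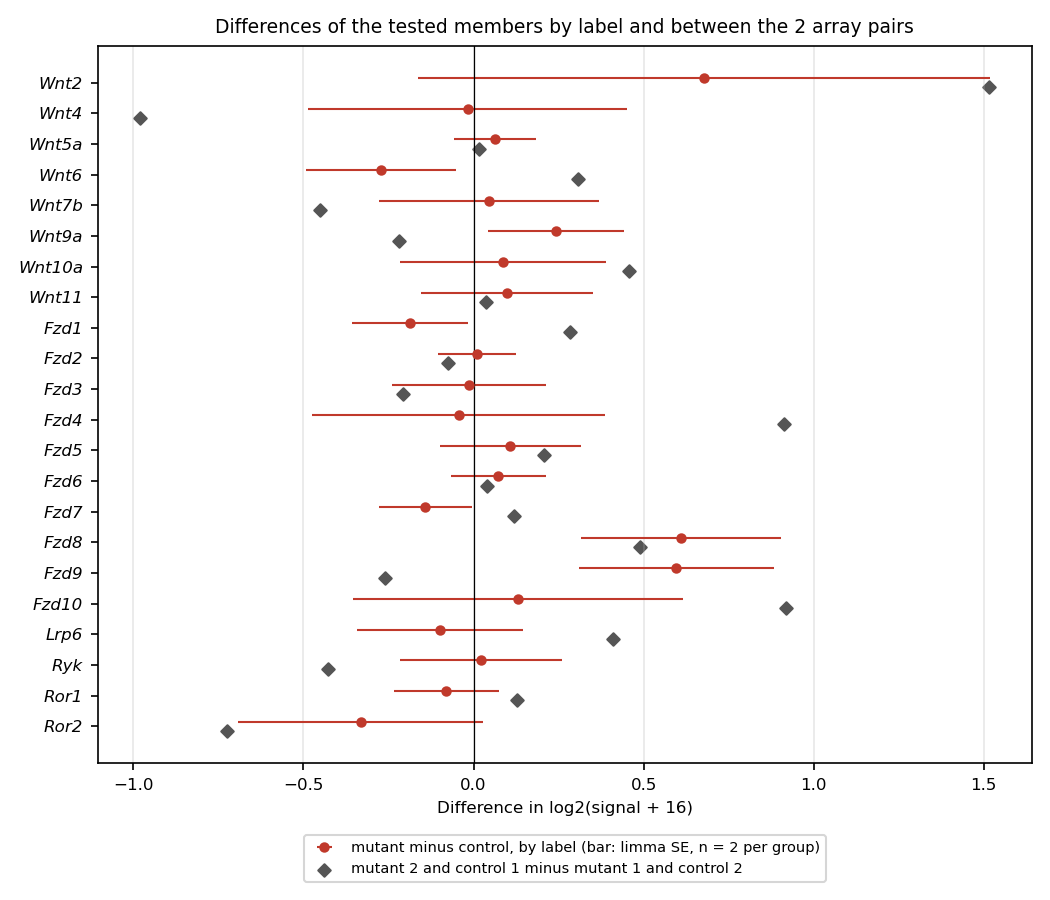
Differences in log2(signal + 16) for the 22 tested members. Red circles are mutant minus control by label with limma's standard error (n = 2 per group), and grey diamonds are the arrays mutant 2 and control 1 minus mutant 1 and control 2, with no error since the pairs are not groups of the study. Wnt4, Fzd4 and Ryk are near 0 by label and away from 0 between the pairs.

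Between the pairs, several members stood further apart than by label, as did most of the array. The difference between the pairs exceeded the difference by label in size for 15 of the 22 members, against 66.5% of all tested probe sets, so the members' share was close to that of the array. Mutant 2 and control 1 both lay above mutant 1 and control 2 for 8 of 22 members, against 26.4% of all tested probe sets. They both lay below for 5 of 22, against 23.6% of all tested probe sets. The median size of the difference was 0.30 for the members and 0.16 over all tested probe sets. These values are descriptions of 4 arrays.

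Of the ligands, Wnt2, Wnt6 and Wnt10a were higher on mutant 2 and control 1, and Wnt4 and Wnt7b were lower there. Wnt2 averaged 395.5 on mutant 2 and control 1 and 153 on mutant 1 and control 2, a log2 difference of 1.51, but mutant 1 stood nearer to the higher pair than to control 2. Wnt4 averaged 88.9 on mutant 2 and control 1 and 191 on mutant 1 and control 2, a log2 difference of -0.98. Its further probe set gave 55.8 and 41.6 on mutant 2 and control 1 and 103 and 146 on mutant 1 and control 2, with the same order of pairs. Within a pair, where 1 mutant meets 1 control, Wnt4 differed by 0.060 (mutant 2 minus control 1) and -0.094 (mutant 1 minus control 2). Wnt10a and Wnt6 differed between the pairs by 0.46 and 0.31, and Wnt7b by -0.45. Wnt5a overlapped between the pairs on its brightest probe set, although its next brightest gave 246 and 243 on mutant 2 and control 1 and 215 and 205 on mutant 1 and control 2.

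Of the Frizzleds, Fzd10, Fzd4, Fzd1 and Fzd5 were higher on mutant 2 and control 1, by 0.92, 0.91, 0.28 and 0.21, and Fzd2 was lower by a log2 difference of -0.07. Fzd4 gave the cleanest separation. Its within-pair differences were -0.04 (mutant 2 minus control 1) and -0.05 (mutant 1 minus control 2), and its other probe sets differed between the pairs by 0.59 and 0.66. Fzd10 had a less even pattern, with within-pair differences of -0.28 (mutant 2 minus control 1) and 0.54 (mutant 1 minus control 2). Fzd6 overlapped on its brightest probe set, at 0.04, but a dimmer one gave 30.8 and 37.9 on mutant 2 and control 1 and 56.5 and 59.2 on mutant 1 and control 2, so its probe sets disagreed. Fzd3 overlapped on its brightest probe set, at -0.21. Of its dimmer probe sets above background, those at -0.44 and -0.24 were lower on mutant 2 and control 1, and that at 0.08 overlapped.

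Of the co-receptors, Lrp6 was higher on mutant 2 and control 1, by 0.41, and Ryk and Ror2 were lower, by log2 differences of -0.43 and -0.72. The further probe set of Lrp6 gave 111 and 124 on mutant 2 and control 1 and 84.1 and 100.6 on mutant 1 and control 2. For Ryk, the next brightest probe set differed by -0.40, whereas the dimmest differed by 0.02 and overlapped. For Ror2, the dimmer probe set gave 53.9 and 15.6 on mutant 2 and control 1 and 36.6 and 53.7 on mutant 1 and control 2, so the pairs overlapped on it. Ror1 differed by 0.13 and overlapped.

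**Figure D3:**
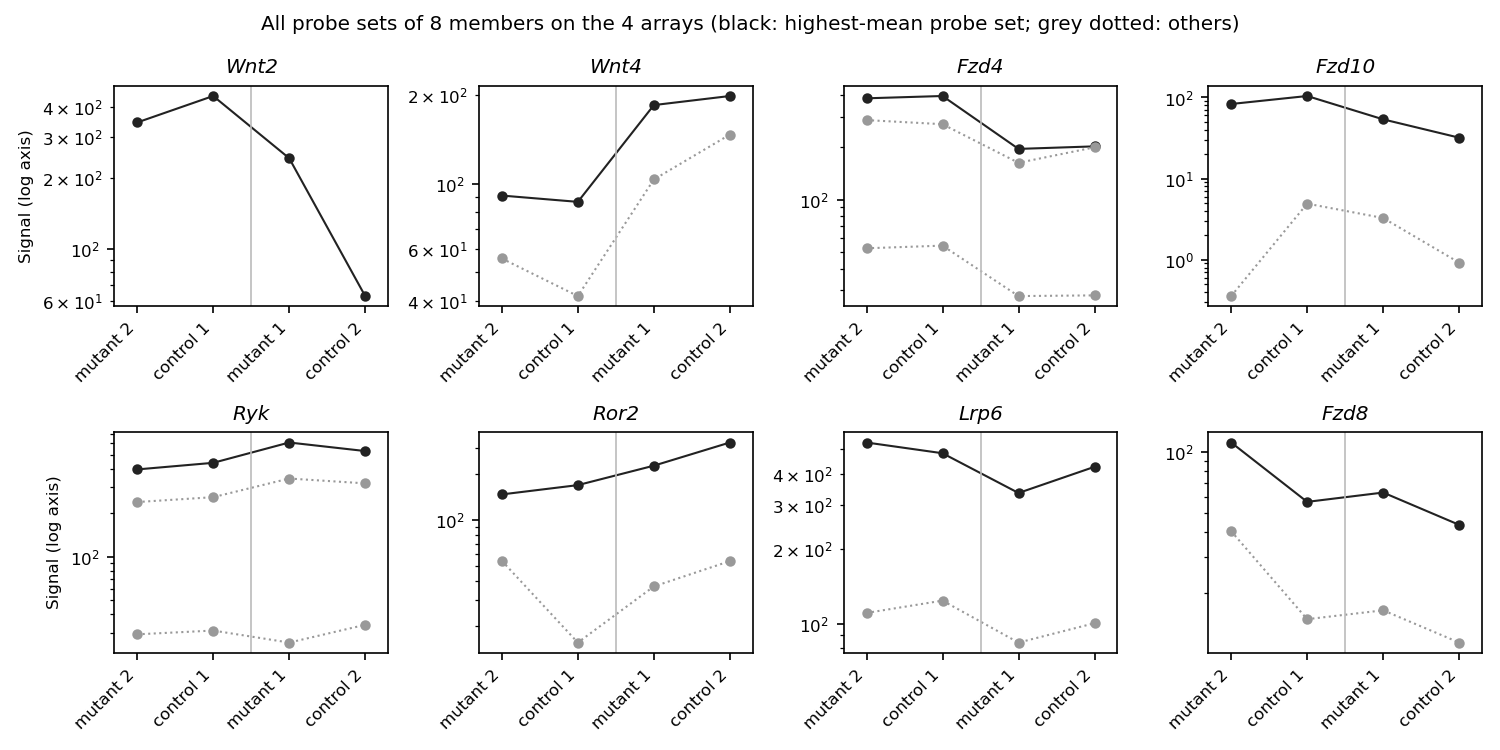
Signal (log axis) of every probe set of 8 members on mutant 2 and control 1, left of the grey line, and on mutant 1 and control 2, right of it. Black points and solid lines are the brightest probe set, grey points and dotted lines the others, and lines join the values of 1 probe set. Both probe sets of Wnt4 are lower on the left and all 3 of Fzd4 are higher there, while the probe sets of Ror2 disagree.

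The authors' deposited table lists 2 of the 34 members. Wnt4 stands there at a mutant over control fold of 0.287 and Fzd4, under a clone name, at 2.15. In the deposited signals, the mutant over control ratio of mean signals was 0.968 for Wnt4 and 0.969 for Fzd4, whereas the ratio of mutant 2 and control 1 over mutant 1 and control 2 was 0.465 and 1.95. The columns per embryo of the authors' deposited table give 0.372 and 0.899 for Wnt4 on the mutant arrays and 1.01 and 0.987 on the control arrays, which makes a ratio of 0.636 and not the listed fold. For Fzd4 the same columns of the authors' deposited table give 0.981 and 0.983 on the mutant arrays and 1.01 and 0.988 on the control arrays, a ratio of 0.982. For Fzd4 the fold and the columns of the authors' deposited table lie on opposite sides of 1. The table was chosen by its authors on these arrays, so its directions are not independent evidence.

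Promoters are shown for Wnt4, Wnt2, Fzd4 and Ror2, which lay among the members furthest apart between the pairs, to set their sequence before the start of transcription side by side. The promoter of Wnt11, whose labelled groups and pairs overlapped, is shown because it holds the motif searched, and it was chosen after the search. Each line gives the 250 bases before a RefSeq start on the GRCm38.p6 assembly, 5′ to 3′ on the gene's strand. Capitals mark CTTTGA, a form of the core of sites bound by Tcf and Lef factors, or its reverse complement TCAAAG. Other forms of the core were not searched.
Wnt4 (chr4:137277385-137277634, plus strand): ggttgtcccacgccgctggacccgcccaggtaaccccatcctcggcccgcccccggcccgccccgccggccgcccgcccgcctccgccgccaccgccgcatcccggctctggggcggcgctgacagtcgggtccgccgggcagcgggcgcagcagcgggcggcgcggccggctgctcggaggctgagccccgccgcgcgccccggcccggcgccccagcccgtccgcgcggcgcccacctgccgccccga
Wnt2 (chr6:18030446-18030695, minus strand): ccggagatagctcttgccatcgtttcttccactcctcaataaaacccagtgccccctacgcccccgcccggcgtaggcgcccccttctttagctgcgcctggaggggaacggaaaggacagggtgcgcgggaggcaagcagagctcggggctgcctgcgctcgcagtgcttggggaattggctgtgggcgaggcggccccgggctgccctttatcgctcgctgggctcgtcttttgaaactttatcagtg
Wnt11 (chr7:98834862-98835111, plus strand): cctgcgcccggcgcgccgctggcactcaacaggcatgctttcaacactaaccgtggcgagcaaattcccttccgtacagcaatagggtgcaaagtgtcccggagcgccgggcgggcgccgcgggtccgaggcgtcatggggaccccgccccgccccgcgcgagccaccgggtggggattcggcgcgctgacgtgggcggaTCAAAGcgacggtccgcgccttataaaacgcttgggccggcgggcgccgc
Fzd4 (chr7:89404116-89404365, plus strand): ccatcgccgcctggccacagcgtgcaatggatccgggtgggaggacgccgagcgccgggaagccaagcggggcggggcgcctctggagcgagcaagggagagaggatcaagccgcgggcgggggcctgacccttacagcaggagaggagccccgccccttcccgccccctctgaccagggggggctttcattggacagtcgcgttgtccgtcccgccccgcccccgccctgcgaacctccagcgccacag
Ror2 (chr13:53286125-53286374, minus strand): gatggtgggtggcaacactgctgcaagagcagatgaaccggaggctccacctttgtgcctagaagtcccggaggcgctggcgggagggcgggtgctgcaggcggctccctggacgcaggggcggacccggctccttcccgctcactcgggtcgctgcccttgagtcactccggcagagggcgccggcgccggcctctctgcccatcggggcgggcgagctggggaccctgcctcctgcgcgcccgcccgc

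Of the 5 windows shown, that of Wnt11 holds this form of the core, as its choice fixed, and there it begins 50 bases before the start. Of the 34 members, 24 had an entry, with 27 starts, and 4 of the 27 windows (14.8%) held this form on either strand. Over all 32851 windows of that length the share was 13.8%. The other member starts that held it were those of Fzd1 and Ror1 and 1 of the starts of Wnt5b. The windows shown were rich in G and C, from 63.6% for Wnt2 to 85.2% for Wnt4, against a median of 52.4% over all starts.

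Other genes of the pathway were examined by lists, and 0 of their tested members passed by label in limma, with 8 tested genes of Wnt secretion and processing, 18 of signal transduction, 10 of planar cell polarity and 13 feedback targets. Between the pairs, 7 of 8 secretion and processing genes did not overlap, 4 being higher on mutant 2 and control 1 and 3 lower, against 26.4% and 23.6% of all tested probe sets. Notum, a secreted enzyme that removes the lipid from Wnt proteins, gave 162 and 194 on mutant 2 and control 1 and 90.9 and 78.7 on mutant 1 and control 2. Sulf2, a sulfatase that trims heparan sulfate at the cell surface, gave 859 and 749 on mutant 2 and control 1 and 1707 and 1796 on mutant 1 and control 2. Porcn, which attaches the lipid to Wnt proteins, gave 46.4 and 46.5 on mutant 2 and control 1 and 19.8 and 32.7 on mutant 1 and control 2. Sulf1, a sulfatase like Sulf2, differed by 0.25 ± 0.25 by label (limma SE, n = 2 per group).

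Of 10 planar cell polarity genes tested, 4 were higher and 4 lower on mutant 2 and control 1, against 26.4% and 23.6% of all tested probe sets. Ptk7, a pseudokinase receptor of that pathway, gave 192 and 244 on mutant 2 and control 1 and 486 and 564 on mutant 1 and control 2. The brightest probe sets of Ror2 and Ryk were also lower on mutant 2 and control 1, whereas that of Ror1 overlapped. Prickle2, a cytoplasmic polarity protein, gave 344 and 349 on mutant 2 and control 1 and 197 and 197 on mutant 1 and control 2. Vangl1, a membrane protein of the same pathway, gave 190 and 225 on mutant 2 and control 1 and 145 and 159 on mutant 1 and control 2.

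Of 18 signal transduction genes, 5 were higher and 3 lower on mutant 2 and control 1, and the other 10 overlapped, a split near the 26.4% and 23.6% of all tested probe sets. Tcf7l2, a transcription factor partner of beta-catenin, gave 391.5 and 399 on mutant 2 and control 1 and 210 and 301 on mutant 1 and control 2. Lef1, another such factor, gave 131 and 201 on mutant 2 and control 1 and 251 and 261 on mutant 1 and control 2. Of 13 feedback targets, 4 were higher and 8 lower on mutant 2 and control 1, against 26.4% and 23.6% of all tested probe sets, with a median difference of -0.997. Dkk1, a secreted antagonist that binds Lrp6, gave 1042 and 1584 on mutant 2 and control 1 and 200 and 293 on mutant 1 and control 2, while the antagonist Apcdd1 gave 920 and 1001 on mutant 2 and control 1 and 3598 and 3542 on mutant 1 and control 2. Feedback targets thus lay further apart than the ligands and receptors, whose largest difference was the 1.51 of Wnt2, a comparison given without a test.

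**Figure D4:**
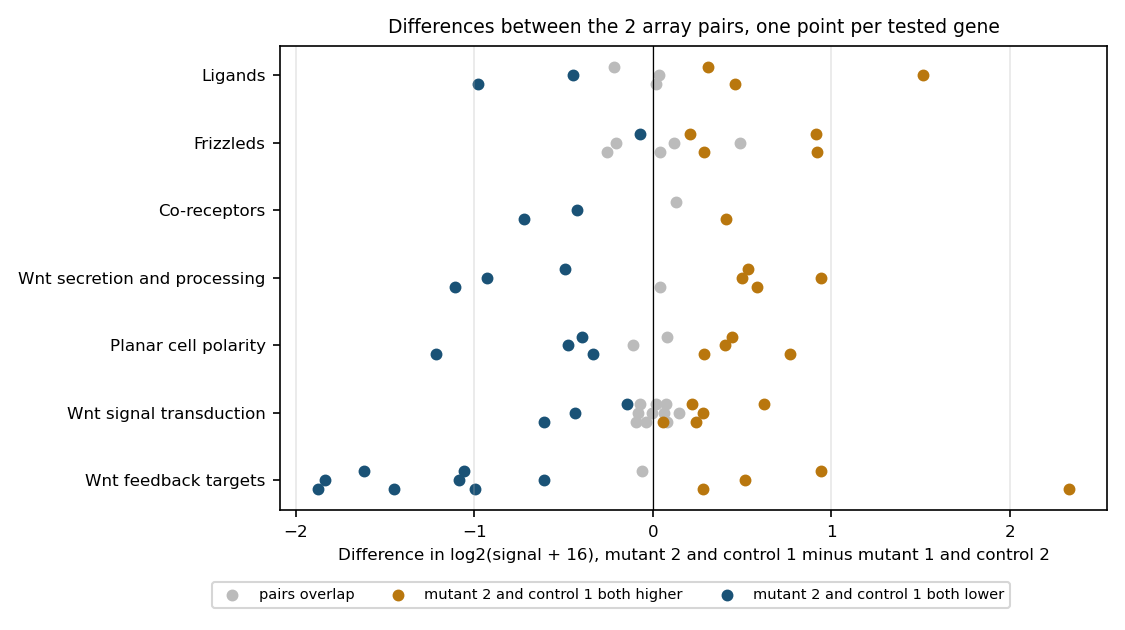
Difference in log2(signal + 16) of mutant 2 and control 1 minus mutant 1 and control 2 for each tested gene of the 3 member groups and of 4 further Wnt pathway lists, 1 point per gene (vertical scatter within a row has no meaning). Brown points have both arrays of mutant 2 and control 1 above the other pair, blue points both below, and grey points overlap. Points of the feedback targets reach from -1.88 to 2.33, and those of the ligands from -0.98 to 1.51.

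Markers of other cell types differed between the arrays as well, and fewer cells of a type and less RNA per cell cannot be told apart in such samples. The summed signal of 15 epidermal markers was 5484 on mutant 1 and 1972 on mutant 2, against 1794 on control 1 and 1309 on control 2, and 6 of the 14 tested had both mutant arrays above both control arrays, against 8.69% of all tested probe sets. Between the pairs, 5 of the 14 were lower on mutant 2 and control 1, 2 were higher and 7 overlapped, against 23.6% lower and 26.4% higher over all tested probe sets. The epidermal gene Krt1 gave 25.1 and 17.3 on mutant 2 and control 1 and 325.5 and 90.8 on mutant 1 and control 2. The epidermal transcription factor gene Tfap2c lay the other way, with 148 and 175 on mutant 2 and control 1 and 28.7 and 20.3 on mutant 1 and control 2. The summed signal of 10 skeletal muscle markers was 18910 on mutant 1 and 8851 on mutant 2, against 3428 on control 1 and 10060 on control 2, and 9 of 10 were lower on mutant 2 and control 1, against 23.6% of all tested probe sets. For 8 endothelial markers the sums were 3224 and 3712 on the mutant arrays and 3950 and 3803 on the control arrays, and 5 of 8 had both mutant arrays below both control arrays, against 11.8% of all tested probe sets. The receptor gene Kdr differed by -0.37 by label and the junction gene Cldn5 by -0.36, and 0 of the 8 passed in limma after adjustment, with an unadjusted p under 0.05 for Cldn5 alone. Between the pairs, 2 of 8, Tek and Pecam1, were higher on mutant 2 and control 1, against 26.4% of all tested probe sets, and 6 overlapped. For 10 dermal mesenchyme markers they were 53920 and 36970 on the mutant arrays and 43650 and 48240 on the control arrays, with 6 of 10 lower on mutant 2 and control 1, against 23.6% of all tested probe sets. For 6 Schwann cell and nerve markers they were 512 and 499 on the mutant arrays and 400 and 462 on the control arrays. Of the 5 tested, 1 was higher on mutant 2 and control 1 and 3 were lower, against 26.4% and 23.6% of all tested probe sets. S100b gave 286.5 and 211.5 on mutant 2 and control 1 and 53.0 and 22.7 on mutant 1 and control 2. Fabp7 lay the other way, with 79.6 and 78.1 on mutant 2 and control 1 and 266.9 and 267.5 on mutant 1 and control 2. Nefl differed by 0.56 by label. Of the cartilage markers, Col2a1 and Matn1 were under background on the 3 arrays other than mutant 2. No marker of these lists was listed at 0, and the part of these markers in the members' values was not tested.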

How the data were processed

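Dermal RNA of 2 mutant and 2 control embryos was hybridised to Affymetrix MOE430 2.0 arrays, grouped by the sample titles. Each probe set has a linear signal intensity deposited by the authors, and GCOS and MAS5 are named per the submitters' processing notes, without versions. The deposited intensity has an equal trimmed mean on each array, so no normalization was added. A second deposited table gives the authors' mutant over control fold, a ratio made from GCRMA values with a Welch test p under 0.01 without correction, at least 2-fold and detection on at least 2 of 4 arrays, per the file headers. Probe sets were named from the platform annotation, and 64 array controls were left out of 45101. Deposited signals were turned into log2(signal + 16). Labels were compared in R 4.3.3 with limma 3.58.1 (lmFit, then eBayes with its trend option), two-sided, at a Benjamini-Hochberg adjusted threshold of 0.05, over the 22519 probe sets whose mean log2 value reached the median, 5.515 (a signal of about 29.7). The pseudocount makes changes of dim probe sets look smaller than they were. The fit was tested on simulated data with equal, independent spread for every probe set and no array pairs. Its power on arrays like these was therefore not tested. The number of arrays limits the precision, and p-values rest on the spread between these 4 arrays. Same-numbered arrays deviated from their group means in opposite directions (correlation -0.62 over tested probe sets). With 2 arrays per group, mutant 1 with control 2 gives 0.62 by construction. This value therefore cannot show whether the numbers pair the samples. All members were described. From other lists the rule named up to 2 genes with the largest difference by label and up to 2 with the largest difference between the pairs, and other genes were chosen after their values were seen. Members and lists were chosen with earlier results of these data known. Alternatives were pseudocounts of 1 and 64, other filters, quantile normalization, no trend, left-out arrays, blocks and the mean over probe sets. Tables and figures were made with Python 3.11.15, pandas 2.3.3 and matplotlib 3.10.9.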

Additional observations from a re-analysis of the deposited data

How the results depend on the processing

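By label, 0 probe sets passed in limma with all 4 arrays, and 0 passed under either pseudocount, either filter, quantile normalization or without the intensity trend (80 to 1211 with an unadjusted p under 0.05). With the replicate block, which pairs equal numbers, 0 passed and 96 had an unadjusted p under 0.05. Without mutant 2, the log2 difference of Xist (named after its value was seen) was -7.07, mutant minus control. The labels do not give the sex of the embryos, and the part of sex in the values was not tested. A crossed replicate block, added after the data were seen, gave 108 calls. In these fits 0 members passed. Members above background numbered 26 with the 75th percentile and 21 when 4 of 4 arrays were required. Pseudocounts and quantile normalization turned the direction of 0 of the 22 tested members. Filters, trend and blocks leave each log2 difference by label as it was, so they could not turn a direction (13 members remained under the stricter filter). Leaving out arrays turned the direction of 14 of 22 members, with log2 differences by label of -0.60 to 1.95 for Wnt2, -0.55 to 0.51 for Wnt4, -0.38 to 0.47 for Wnt7b, -0.28 to 0.45 for Wnt10a, -0.15 to 0.35 for Wnt11, -0.0319 to 0.0513 for Fzd2, -0.29 to 0.26 for Fzd3, -0.50 to 0.41 for Fzd4, -0.0205 to 0.24 for Fzd5, -0.53 to 0.79 for Fzd10, -0.42 to 0.23 for Lrp6, -0.28 to 0.32 for Ryk, -0.22 to 0.0555 for Ror1 and -0.77 to 0.10 for Ror2. Fewer arrays were fitted there, 1 against 2, with the lone array assumed to vary like the others. The mean over all probe sets of a gene turned the direction for 6 members, with -0.034 for Wnt7b, -0.021 for Fzd2, -0.064 for Fzd5, -0.033 for Fzd6, -0.046 for Ryk and 0.019 for Ror2; the cause was not tested. A block per fluidics module was not run, since each held 1 array, but the split of the scan order into earlier and later arrays is that of the crossed replicate block above. Signals near background limit what can be said of the 9 dim ligands.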

Other observations

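Several ligand genes of the family are neighbours in the genome. In the RefSeq annotation, 4 neighbouring pairs of members were found, Wnt6 with Wnt10a, Wnt3a with Wnt9a, Wnt9b with Wnt3 and Wnt10b with Wnt1. Wnt6 and Wnt10a formed the sole pair with both genes above background in dermis, and both were highest on control 1. Of the other tested members, Wnt2, Fzd1, Fzd4, Fzd7 and Fzd10 were highest on control 1 as well. Wnt9a was above background whereas its neighbour Wnt3a was not, with 2.27 and 3.36 on the mutant arrays and 12.0 and 10.5 on the control arrays for Wnt3a, all under the background level. The other 2 pairs were under background for both genes.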
